A study of Mus musculus with 6 samples.

Results

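The genes described here are 42 interferon-stimulated and antiviral sensing genes, taken by symbol from the 14665 protein-coding genes of the gene table. They comprise 8 genes of receptors and signalling and 34 induced effectors. The effectors as grouped here include the RNA sensors Ddx58, Ifih1 and Dhx58 and the ligase gene Trim25, whose products also take part in sensing and signalling. The symbols were proposed with results of the same contrast in view, so the values of the 42 genes are given as a description, without p-values. Of the 42 genes, 41 were found in the table and Mx2 was not analysed here. The filter on low counts kept 39 of them. Oasl1 had 0, 0 and 0 counts in the H/R group against 0, 3 and 0 in the control group, and Mx1 had 0, 0 and 0 against 0, 1 and 0, so both stayed below the filter.

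All libraries came from C17.2, an immortalized mouse neural stem cell line with the genotype WT, grown in medium with serum. The H/R group (n = 3) had been kept for 12 h at 5% oxygen to imitate ischemia in a dish and then for 48 h at standard oxygen. The control group (n = 3) received no such treatment. Being a single line without other cells of the brain, the model holds no immune cells or vessels by design, and whether the replicates were separate cultures is not stated, so that tests measure only the spread between these libraries.

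Cells recognise viral RNA with cytosolic helicases such as RIG-I and MDA5, and answer by secreting type I interferon. Interferon binds a receptor of IFNAR1 and IFNAR2, whose kinases JAK1 and TYK2 phosphorylate STAT proteins, among them STAT2, which joins IRF9 in ISGF3, a factor that binds the interferon-stimulated response element (ISRE) in the promoters of antiviral genes. Interferon gamma acts through another receptor and the gamma-activated site (GAS), and many antiviral genes keep a basal level of expression in cells that have met no virus.

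The promoter letters show where these elements lie. RefSeq promoter windows of mouse build GRCm38.p6 (mm10), from 250 bases before to 50 after each start, were at hand for 33 of the 42 genes, and Dhx58, Ifi27, Usp18, Mx1, Mx2, Oas2, Rtp4, Parp9 and Parp14 had none. The ISRE core was searched as GAAA, any 2 bases and GAAA, and the GAS as TTCNNNGAA, both on either strand. An ISRE core on the other strand reads TTTC, any 2 bases and TTTC. Only genes with a match could be shown. The stretches below come from the 4 lowest log2 fold changes among genes with an ISRE core (Ifit1, Isg15, Rsad2, Bst2), a subunit of ISGF3 (Stat2), both genes that rose (Gbp2, Irf1) and neighbours that carried the same core without passing the test (Gbp3, Gbp7, Ifit3). Each is written 5′ to 3′ along the transcript, with 1 match in capitals, and all of them lie before the RefSeq start.
Isg15, minus strand, chr4:156200856-156200915: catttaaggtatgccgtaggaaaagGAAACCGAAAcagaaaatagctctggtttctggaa
Ifit1, plus strand, chr19:34640779-34640838: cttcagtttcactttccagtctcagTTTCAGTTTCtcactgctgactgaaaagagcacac
Rsad2, minus strand, chr12:26456538-26456597: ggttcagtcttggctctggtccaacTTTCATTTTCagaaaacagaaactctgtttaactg
Bst2, minus strand, chr8:71537568-71537627: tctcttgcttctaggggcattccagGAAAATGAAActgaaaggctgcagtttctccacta
Stat2, plus strand, chr10:128270251-128270310: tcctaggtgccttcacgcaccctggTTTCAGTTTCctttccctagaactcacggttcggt
Gbp2, plus strand, chr3:142620594-142620623: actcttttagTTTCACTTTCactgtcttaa
Gbp3, plus strand, chr3:142559989-142560018: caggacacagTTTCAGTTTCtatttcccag
Gbp7, plus strand, chr3:142530258-142530317: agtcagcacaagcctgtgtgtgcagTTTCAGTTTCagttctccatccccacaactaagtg
Ifit3, plus strand, chr19:34583348-34583407: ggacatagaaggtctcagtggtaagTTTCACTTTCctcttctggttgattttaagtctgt
Irf1, plus strand, chr11:53769899-53769957 (GAS): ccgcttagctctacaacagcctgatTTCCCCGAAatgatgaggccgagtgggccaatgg

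The ISRE core was found in the windows of 13 of the 33 genes (39.4%), against 3.99% of the 27025 genes of the promoter table and 3.69% of the 8289 tested genes in it. By role it was present in 12 of 25 induced effectors (48%) and in 1 of 8 genes of receptors and signalling, which was Stat2. The GAS was found in 9 of the 33 genes (27.3%), against 9.55% of all genes of the promoter table. Isg15 held 3 overlapping ISRE cores, and Bst2 held 2 overlapping cores, the first of which also shared bases with its GAS. The core lay 72 bases before the start in the stretch of Isg15, 85 in Ifit1, 120 in Rsad2, 130 in Bst2 and 222 in Stat2. In the genes with a changed level it occurred on both sides: 8 of the 17 tested and lowered genes with a window carried it, as did 1 of the 2 raised genes (Gbp2) and 4 of the 13 that did not pass the test (Gbp3, Gbp7, Ifit3, Trim21). The GAS also occurred in each class of call. It was matched in 4 of the 17 lowered genes (Adar, Bst2, Eif2ak2, Ifi35) and 1 of the 2 raised genes (Irf1). Of the 13 that did not pass the test, 4 carried it (Gbp7, Ifit2, Ifnar1, Ifnar2). A match is a description of letters and was not tested for binding of a factor.

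**Figure D1:**
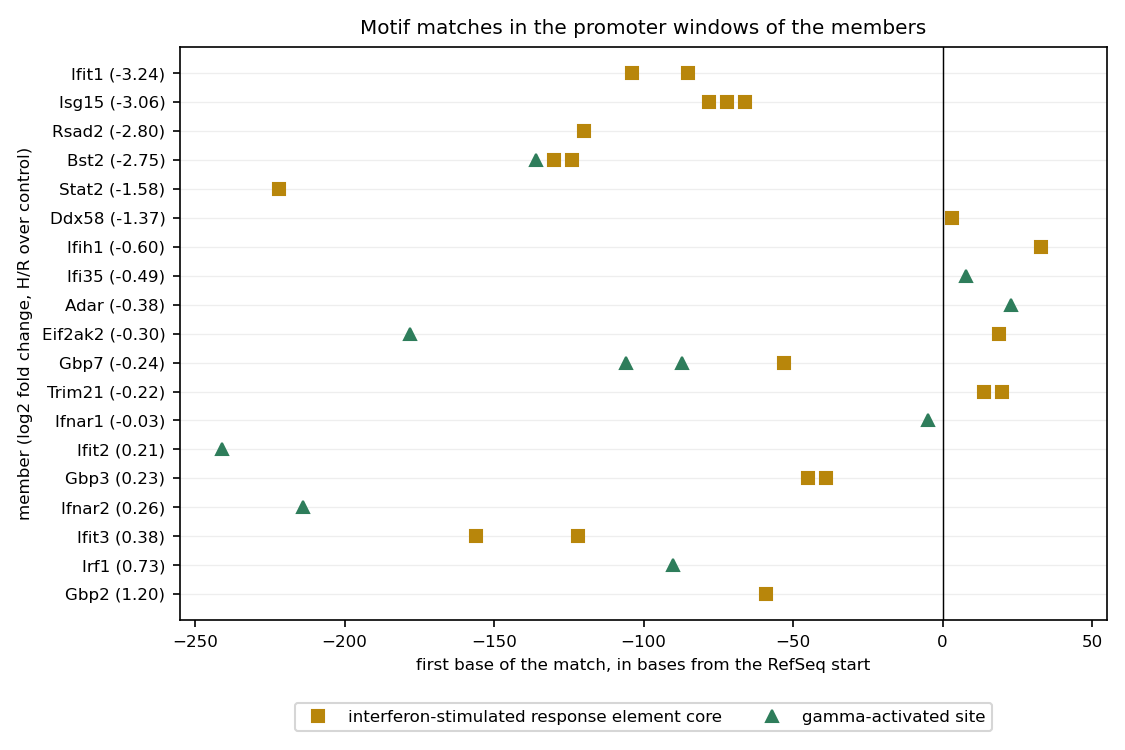
Position of ISRE core (squares) and GAS (triangles) matches, in bases from the RefSeq start on the x axis, for each tested gene with a match, sorted by its log2 fold change of H/R over control (in brackets). The 3 matches of Isg15 lie between 78 and 66 bases before the start, and Gbp2, the gene with the largest increase of those plotted, has 1 core 59 bases before it.

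The counts per library summed to 16830389, 15639751 and 15851179 in the H/R group and to 8371882, 8210400 and 7267809 in the control group, and levels are given in CPM, counts scaled to a common library total with TMM factors of edgeR. Counts of amplified reads are not independent molecules. Of the markers of neural stem cells, Nes, Sox2, Vim, Msi1 and Sox9 were present in all libraries, and Pax6, Fabp7 and Prom1 were not analysed here. Markers of microglia and macrophages, cells rich in interferon-stimulated transcripts, summed to 1.31 to 2.36 CPM in the H/R group and 1.42 to 3.74 CPM in the control group over the 3 of 6 listed genes found in the table. Of these, Itgam had at most 1 count in any library and Cx3cr1 at most 6, and Cd68 supplied most of the rest. In bulk RNA, fewer cells that express a gene and less RNA per cell cannot be told apart.

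Of the 39 genes tested, 22 fell after H/R, 2 rose and 15 did not pass the test (edgeR quasi-likelihood test, Benjamini-Hochberg adjusted p under 0.05). Over all 11104 genes tested 19% fell and 18.8% rose, and since the genes were proposed from this contrast nothing is read from the difference. The median log2 fold change was -0.60 over the 39 genes and 0.01 over all genes. In 24 of the 39 genes every H/R library lay below every control library, in 3 every H/R library lay above, and in 12 the groups overlapped, where 24% of all genes tested lay below, 25.7% above and 49.7% in either of these ways. By the criteria the study used, a raw p under 0.05 together with a 2-fold change or more, 18 of the 39 fell and 1 rose, beside 5.37% and 5.82% of all genes tested. Summed over the effectors, the level was 1017, 1003 and 1056 CPM in the H/R group against 1719, 1448 and 1396 CPM in the control group. Without scaling factors the median of all genes moved to 0.22, and the split of the calls among these genes from 2 higher and 22 lower to 5 higher and 18 lower. The calls of Ifih1, Eif2ak2, Adar and Ifi35 were then lost, and Ifnar2, Ifit2 and Dtx3l passed as higher, with log2 fold changes of 0.47, 0.43 and 0.48.

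**Figure D2:**
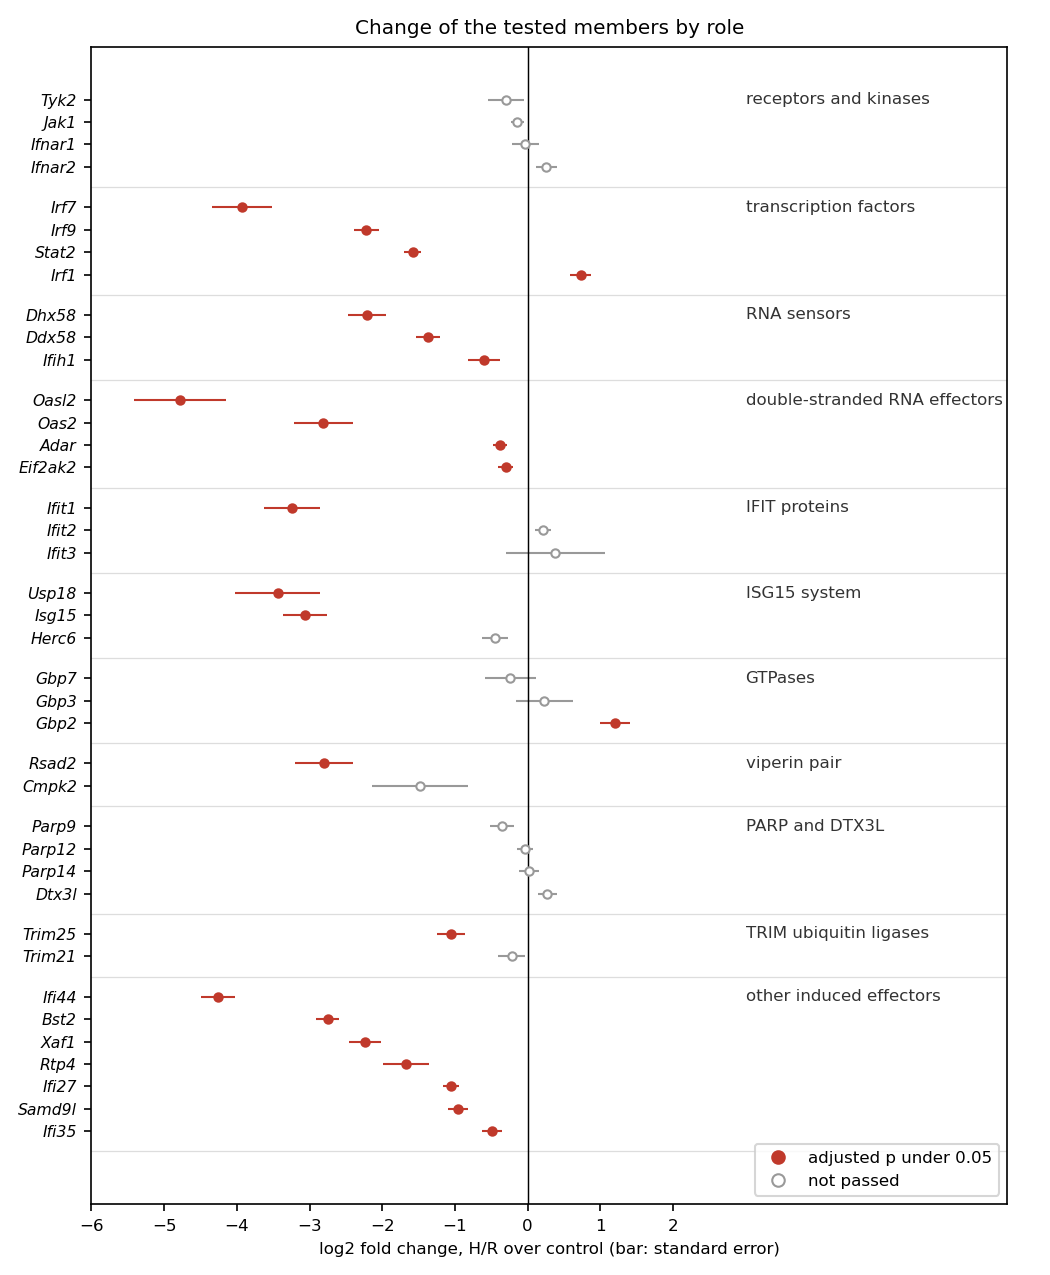
Log2 fold change of H/R over control on the x axis for the 39 tested genes, grouped by role. Bars show the standard error, derived from the statistic of the same test. Filled points are genes past the threshold and open points the others. All 4 receptor and kinase genes lie between -0.30 and 0.26, and the transcription factors spread from -3.93 (Irf7) to 0.73 (Irf1).

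The genes of the receptor and its kinases did not pass the test. Ifnar1, a chain of the type I interferon receptor, had 19.2, 21.4 and 21.9 CPM in the H/R group against 26.6, 20.4 and 16.8 CPM in the control group. Ifnar2, the other chain, had 46.9, 38.7 and 47.8 CPM in the H/R group against 41.8, 37.8 and 31.9 CPM in the control group. In both genes the H/R libraries lay within or across the range of the controls, with log2 fold changes of -0.03 ± 0.19 and 0.26 ± 0.14 (SE). Jak1 had 299, 312 and 312 CPM against 308, 341 and 368 CPM, a log2 fold change of -0.14 ± 0.09 that passed the test only without control replicate 1 (-0.21). Tyk2 had 14.0, 12.3 and 8.36 CPM in the H/R group against 10.6, 17.0 and 15.1 CPM in the control group, with a log2 fold change of -0.30 ± 0.25. The summed level of the 4 genes was 379, 385 and 390 CPM in the H/R group against 387, 416 and 432 CPM in the control group.

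The transcription factors below the receptor changed, all 4 of them, and not in 1 direction. Stat2 (chr10:128270559-128292849), the STAT of ISGF3 that carries its activation domain, had 54.1, 51.9 and 54.7 CPM in the H/R group against 185, 157 and 137 CPM in the control group. Irf9 (chr14:55603571-55610030), which gives ISGF3 its DNA contact, had 8.03, 7.37 and 9.71 CPM in the H/R group against 41.2, 40.3 and 35.8 CPM in the control group. The 3 H/R libraries stood close together and far below every control in both genes, by 2.98-fold for Stat2 (log2 fold change -1.58 ± 0.12) and 4.67-fold for Irf9 (-2.22 ± 0.17). Irf7 (chr7:141262706-141266481), the factor that amplifies the transcription of interferon genes, had 0.880, 0.357 and 1.41 CPM in the H/R group against 13.4, 13.5 and 13.9 CPM in the control group. Its level in the H/R group was 6.49% of that in the control group (log2 fold change -3.93 ± 0.41). Irf1 (chr11:53770014-53778374), a target of interferon gamma and of NF-κB, rose instead. Its GAS is printed above, and a GAS was also found in genes that fell or did not pass the test. Irf1 had 43.1, 42 and 35.7 CPM in the H/R group against 24.0, 24.4 and 24.2 CPM in the control group, 1.66-fold higher (0.73 ± 0.14), with no overlap.

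**Figure D3:**
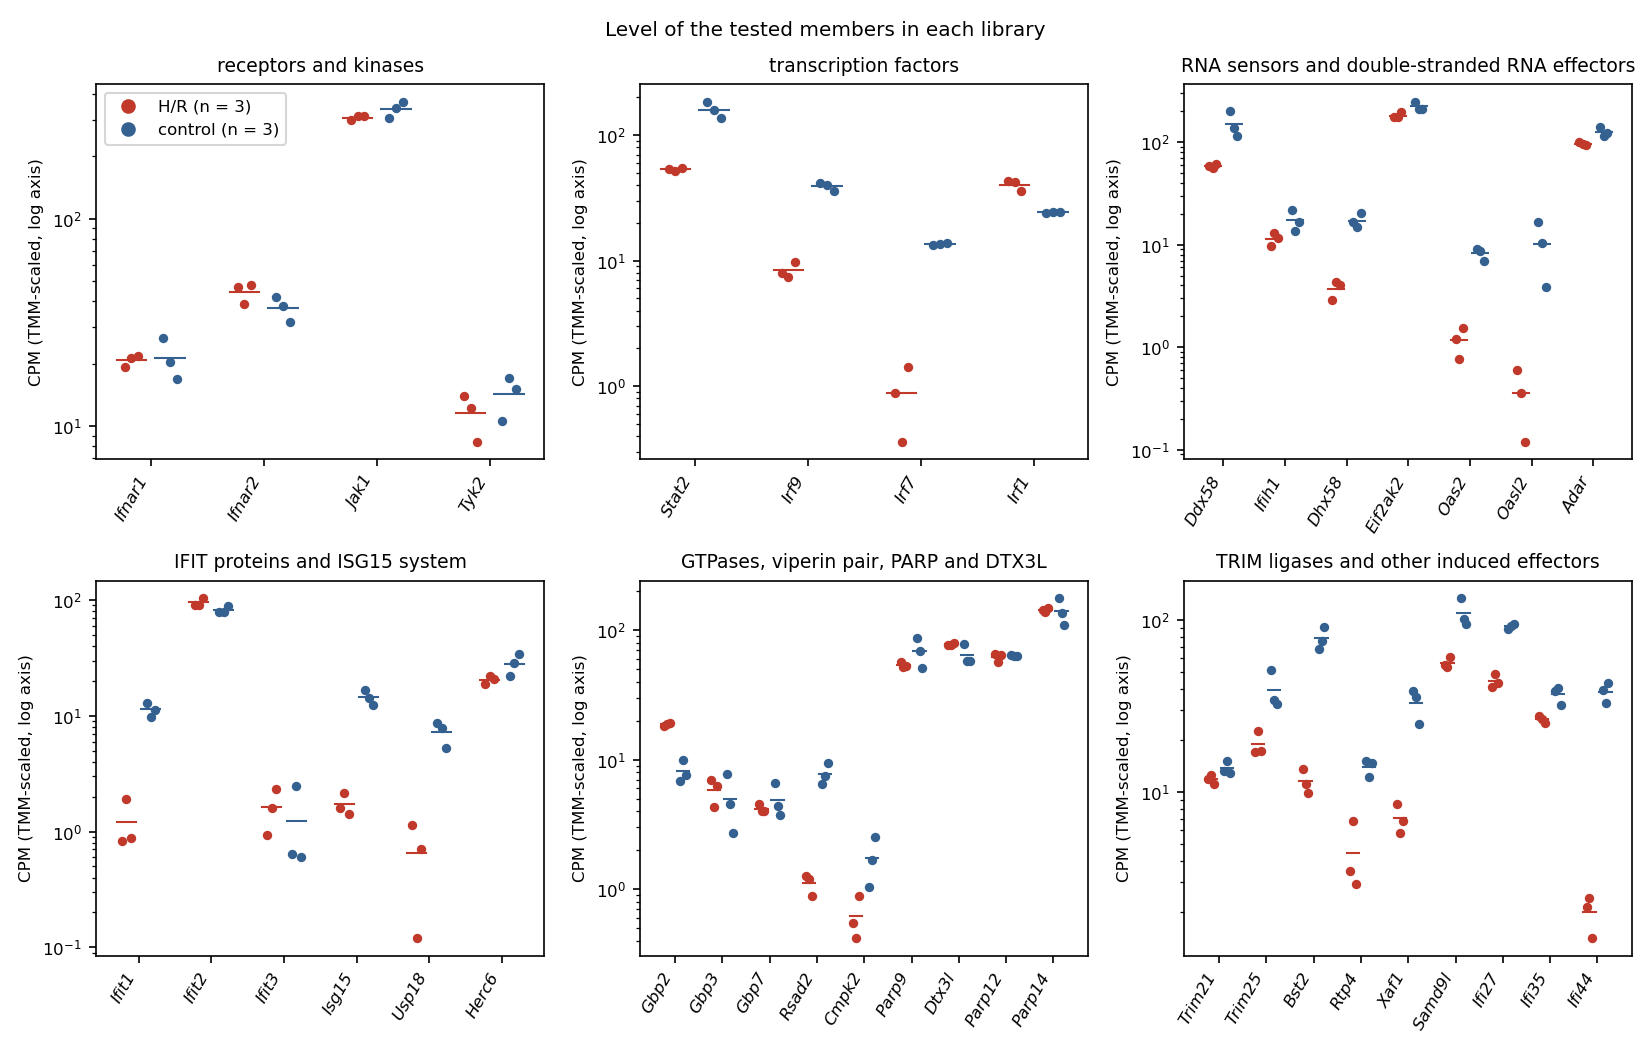
CPM of the 39 tested genes in each library on log axes, in 6 panels by role, with H/R libraries (red) left of control libraries (blue) and a line for each mean. Irf7 and Ifi44 show the gaps behind their 15.2-fold and 19.1-fold decreases, and the receptor chains overlap.

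The 3 helicases that sense RNA in the cytosol fell. Ddx58 (chr4:40203773-40239828), which encodes RIG-I, had 58.9, 55.4 and 60.7 CPM in the H/R group against 201, 137 and 114 CPM in the control group. Dhx58, which encodes LGP2, had 2.86, 4.28 and 4.00 CPM in the H/R group against 16.5, 14.8 and 20.2 CPM in the control group. The controls of Ddx58 varied, with replicate 1 well above the others, but the groups did not overlap in either gene, and the log2 fold changes were -1.37 ± 0.17 and -2.21 ± 0.26. Ifih1, which encodes MDA5, had 9.68, 12.9 and 11.7 CPM against 21.7, 13.6 and 16.8 CPM, so that its highest H/R library (12.9) lay just below its lowest control (13.6). Its log2 fold change of -0.60 ± 0.22 missed the threshold in 8 alternatives, among them each left-out library except control replicate 2, with -0.50, -0.70 and -0.62 without H/R replicates 1, 2 and 3, and -0.41 and -0.63 without control replicates 1 and 3.

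Among the effectors that act on double-stranded RNA, Eif2ak2 and Adar had the higher levels per exon length (43.7 and 15.5 CPM per kilobase in the control group, beside 1.85 for Oas2 and 1.60 for Oasl2) and the smaller decreases. Eif2ak2, the gene of the kinase PKR that halts translation, had 174, 174 and 195 CPM in the H/R group against 249, 212 and 209 CPM in the control group. Adar, whose enzyme edits adenosines in double-stranded RNA, had 101, 95.6 and 93.7 CPM in the H/R group against 140, 115 and 123 CPM in the control group. These were decreases to 81.0% and 76.6% of the control level (log2 fold changes -0.30 ± 0.10 and -0.38 ± 0.10). Both calls were lost without scaling factors, and that of Eif2ak2 also without H/R replicate 1 (-0.27), H/R replicate 2 (-0.27) or control replicate 1 (-0.22). Oas2, an oligoadenylate synthetase, had 1.21, 0.772 and 1.53 CPM against 9.15, 8.70 and 6.88 CPM (-2.81 ± 0.41). Oasl2 (chr5:114896936-114912234), a relative of these enzymes, had 0.605, 0.357 and 0.118 CPM against 16.5, 10.3 and 3.89 CPM, the largest decrease of the 39 genes (-4.78 ± 0.63). Its H/R libraries all lay below the lowest control, control replicate 3, and the value became -5.37 without H/R replicate 1, the highest of its group. Over all 11104 genes only 5 had a lower log2 fold change than Oasl2, 7 than Ifi44 and 12 than Irf7.

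The IFIT genes, which lie near each other on chromosome 19 and encode a family of antiviral proteins, had unlike values. Of these only that of Ifit1 passed the test. Ifit1 (chr19:34640871-34650009) had 0.825, 1.9 and 0.883 CPM in the H/R group against 13.0, 9.87 and 11.2 CPM in the control group, with a log2 fold change of -3.24 ± 0.39. Ifit2 had 91.4, 90.4 and 105 CPM in the H/R group against 79.4, 78.3 and 89.5 CPM in the control group, and Ifit3 had 0.935, 1.60 and 2.35 CPM against 0.644, 2.47 and 0.599 CPM. Neither passed the test (0.21 ± 0.11 and 0.38 ± 0.68), although every H/R library of Ifit2 lay above every control, and the value of Ifit3 was 1.37 without control replicate 2. Ifit3 begins 7111 bp after the end of Ifit2, and Ifit1 begins 52139 bp after the end of Ifit3. Of the 50-base stretches in the transcripts of Ifit3, 51.2% recur in its near copy Ifit3b, so its counts are uncertain.

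The ISG15 system attaches the ubiquitin-like protein ISG15 to other proteins and removes it again. Isg15 (chr4:156199424-156200818) had 1.59, 2.14 and 1.41 CPM in the H/R group against 16.8, 14.2 and 12.3 CPM in the control group. Usp18, the protease that removes ISG15 and damps signalling at IFNAR2, had 1.15, 0.119 and 0.706 CPM in the H/R group against 8.76, 7.92 and 5.24 CPM in the control group. Both fell with no overlap between the groups, by 8.36-fold for Isg15 (log2 fold change -3.06 ± 0.30) and 10.9-fold for Usp18 (-3.44 ± 0.59), and the value of Usp18 was -4.11 without H/R replicate 1. Herc6, the mouse ligase for ISG15, had 18.9, 22.0 and 20.9 CPM against 22.0, 28.7 and 34.1 CPM and did not pass the test (-0.45 ± 0.18), except without control replicate 1 (-0.61) and in edgeR's exact test.

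Of the guanylate-binding GTPases, which attack the membranes around pathogens, Gbp2 rose. Gbp2 (chr3:142620602-142638008) had 18.2, 18.9 and 19.1 CPM in the H/R group against 6.83, 9.87 and 7.63 CPM in the control group, 2.30-fold higher (log2 fold change 1.20 ± 0.21). Its neighbours Gbp3 and Gbp7, in the same orientation within the cluster on chromosome 3, did not pass. Gbp3 had 6.98, 4.34 and 6.30 CPM against 7.73, 4.55 and 2.69 CPM (0.23 ± 0.39, and -0.07 without control replicate 3), and Gbp7 had 4.51, 3.98 and 4.00 CPM against 6.57, 4.42 and 3.74 CPM (-0.24 ± 0.35). The ranges of the groups overlapped in both neighbours and did not in Gbp2. All 3 promoters carried the ISRE core printed above, 59, 45 and 53 bases before the start of Gbp2, Gbp3 and Gbp7.

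Rsad2 and Cmpk2 stand head to head on chromosome 12 with 12751 bp between them, and both encode enzymes of the pathway to an antiviral nucleotide. Rsad2 (chr12:26442746-26456452), the gene of viperin, had 1.26, 1.19 and 0.883 CPM in the H/R group against 6.44, 7.53 and 9.43 CPM in the control group. Cmpk2 had 0.550, 0.416 and 0.883 CPM in the H/R group against 1.03, 1.69 and 2.54 CPM in the control group. Every H/R library lay below every control in both genes, but only Rsad2 passed (log2 fold change -2.80 ± 0.40, against -1.48 ± 0.66 for Cmpk2, which passed in edgeR's exact test and by the criteria of the study).

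The PARP genes and Dtx3l, whose products modify proteins with ADP-ribose and ubiquitin at sites of DNA damage and viral infection, did not pass the test. Parp9 had 56.9, 52.3 and 52.8 CPM in the H/R group against 87.4, 68.5 and 51.0 CPM in the control group, and its partner Dtx3l had 76.6, 76.6 and 80.2 CPM against 77.7, 58.1 and 57.6 CPM. These genes overlap on opposite strands and share 458 bp of exon, and the strand setting of the counting is not stated. Adar and Ifi35 likewise share 16.8% of their exon length with genes on the opposite strand, and 12.7% of the 50-base stretches of Gbp7, 12.5% of those of Herc6 and 7.89% of those of Ifnar2 recur in other gene models, so their counts are uncertain to that extent. The log2 fold change was -0.35 ± 0.16 for Parp9 and 0.27 ± 0.13 for Dtx3l. A call appeared for Parp9 without control replicate 3 (-0.54), and for Dtx3l without control replicate 1 (0.43) and without scaling factors. Parp12 ranged from 57.0 to 65.8 CPM in the H/R group and from 63.5 to 64.3 CPM in the control group (-0.03 ± 0.11). Parp14, the largest of the 4 genes by exon length, ranged from 137 to 149 CPM in the H/R group and from 109 to 178 CPM in the control group (0.02 ± 0.14).

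Of the TRIM ubiquitin ligases, Trim25, whose product adds ubiquitin in the RIG-I pathway, had 17.1, 22.6 and 17.4 CPM in the H/R group against 51.3, 34.4 and 32.6 CPM in the control group and fell (log2 fold change -1.05 ± 0.19). Trim21, a cytosolic receptor of antibodies, had 11.9, 12.5 and 11.2 CPM against 13.3, 15.2 and 13.0 CPM, all lower but not past the threshold (-0.22 ± 0.19).

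The other 7 induced effectors all fell, and their summed level was 152, 155 and 151 CPM in the H/R group against 424, 390 and 396 CPM in the control group. Ifi44 (chr3:151730922-151749960) had 2.14, 2.44 and 1.41 CPM in the H/R group against 39.2, 33.1 and 43.0 CPM in the control group. Bst2 (chr8:71534255-71537456), the gene of tetherin, which holds budding virions at the cell surface, had 13.6, 11.2 and 9.95 CPM in the H/R group against 68.1, 75.9 and 91.1 CPM in the control group. Ifi44 fell 19.1-fold (log2 fold change -4.26 ± 0.23) and Bst2 6.75-fold (-2.75 ± 0.16), each with a wide gap between the groups. Xaf1, which antagonises the apoptosis inhibitor XIAP, had 8.58, 5.76 and 6.77 CPM against 38.7, 35.5 and 25.0 CPM (-2.23 ± 0.22). Rtp4, a chaperone of membrane receptors, had 3.46, 6.83 and 2.94 CPM against 15.1, 12.3 and 14.8 CPM (-1.67 ± 0.32), and 11.6% of its 50-base stretches recur in an overlapping gene model. In both genes the highest H/R library remained below the lowest control. Ifi27, a protein of mitochondrial and nuclear membranes, had 41.0, 48.5 and 43.1 CPM against 88.4, 92.0 and 95.3 CPM (-1.06 ± 0.11). Samd9l, a restriction factor of poxviruses, had 55.2, 53.4 and 61.4 CPM against 135, 101 and 94.4 CPM (-0.96 ± 0.14). Ifi35 had 27.8, 26.7 and 25.1 CPM against 38.7, 40.5 and 32.2 CPM (-0.49 ± 0.14). This change of Ifi35 was the smallest of the 7 and lost its call without scaling factors (-0.27), H/R replicate 2 (-0.49), H/R replicate 3 (-0.45) or control replicate 2 (-0.43).

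**Figure D4:**
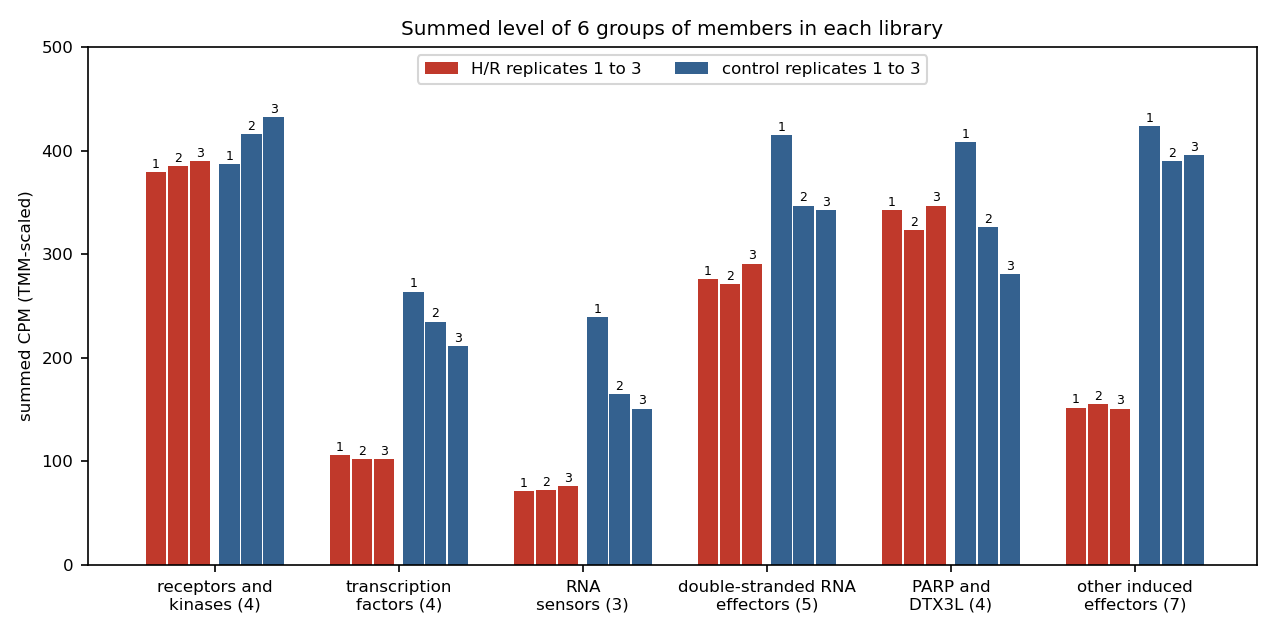
Summed TMM-scaled CPM of 6 role groups in each library, with the number of genes in brackets and the replicate number above each bar, H/R in red and control in blue. The receptor and kinase genes sum to 379 to 390 CPM in the H/R group and 387 to 432 CPM in the control group, and the other induced effectors to 151 to 155 and 390 to 424 CPM.

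The summed level of all these genes was 1513 ± 30.0 CPM in the H/R group and 2169 ± 176 CPM in the control group (SD, n = 3 each). The control libraries thus spread more, and the cause of this was not tested. Control replicate 1 was the highest control in 23 of the 39 genes (59%), against 36.8% of all genes tested, and control replicate 3 was the lowest in 22 (56.4%), against 36.5%. Among the H/R libraries, replicates 1, 2 and 3 were highest in 13, 11 and 15 genes. The sensors showed this spread, with a sum of 239, 165 and 151 CPM in the control group beside 71.4, 72.6 and 76.4 CPM in the H/R group. Without control replicate 1, 22 of the 39 genes were called lower and 3 higher.

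Compared per length of exon, the order of the genes differed between the groups. In the H/R group Jak1 stood highest at 42.6 CPM per kilobase, followed by Eif2ak2 (35.4), Ifi27 (30.1) and Ifit2 (24.3), with Bst2 at 12.8, Isg15 at 2.27, Irf7 at 0.234 and Oasl2 at 0.0564. In the control group Bst2 stood highest at 86.8 CPM per kilobase, followed by Ifi27 (62.6), Jak1 (46.9) and Eif2ak2 (43.7), with Isg15 at 19.0, Irf7 at 3.60 and Oasl2 at 1.60. Near neighbours in this order, such as Ifi35 (21.5), Ddx58 (21.4), Ifit2 (21.0) and Samd9l (20.3) in the control group, differed by less than the spread between the libraries.

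**Figure D5:**
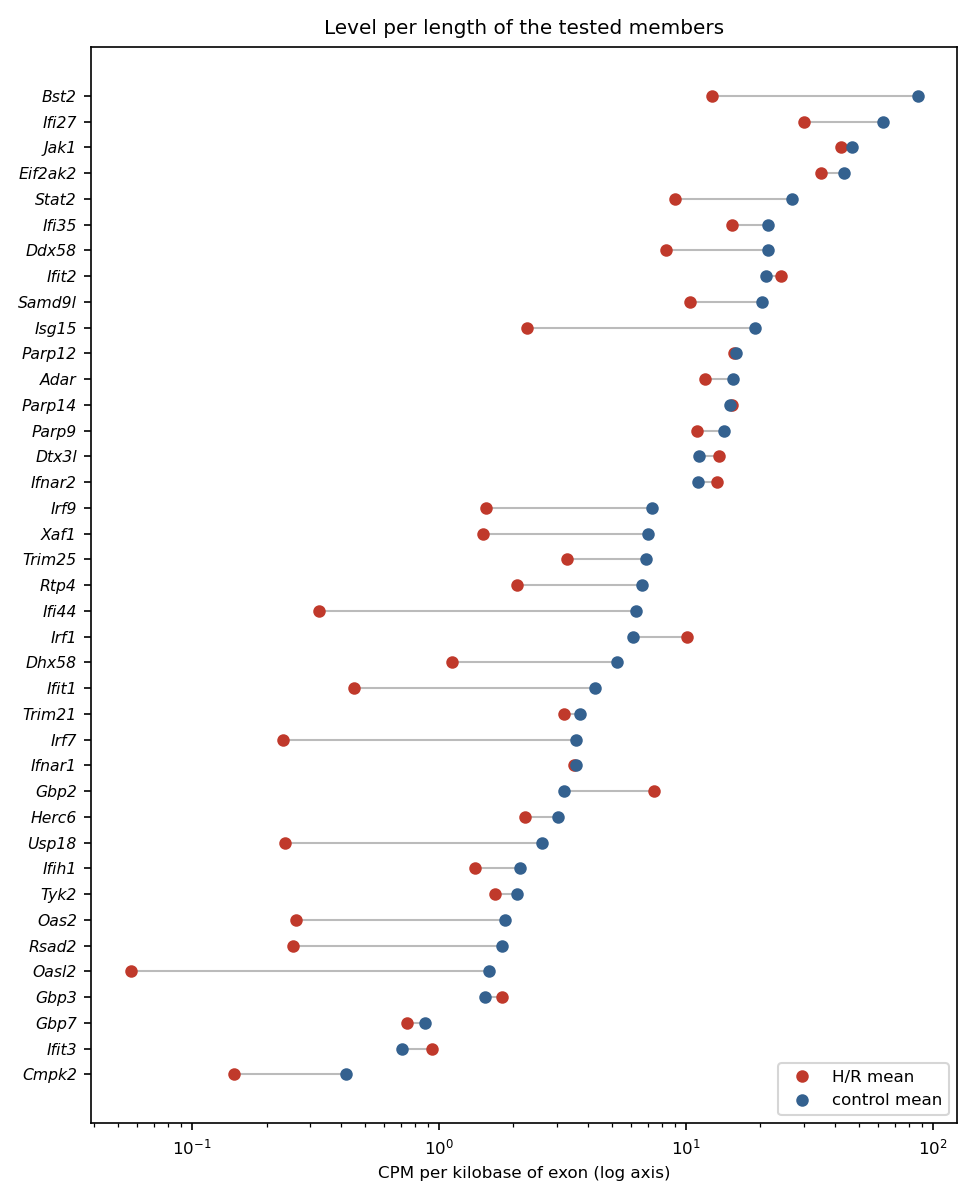
Mean CPM per kilobase of exon on a log axis for the 39 tested genes, H/R in red and control in blue, sorted by the control mean. Bst2 stands at 12.8 CPM per kilobase in the H/R group and heads the control order at 86.8. Jak1, Eif2ak2, Ifi27 and Ifit2 stand above 20 in both groups.

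A further 108 genes of the pathway were listed by their function, with earlier results of these data known. Apart from Irf3, those named with a p-value were picked by it, so these p-values are a description. Of these 92 were found in the table and 74 were tested, and 14 rose, 18 fell and 42 did not pass, with a median log2 fold change of -0.10, where 18.8% of all genes tested rose and 19% fell. In the list of interferons and receptors 2 of 3 tested genes rose. Of the interferon genes listed, only Ifna4 and Ifne were found in the table, both at or near 0. Ifna4 had 4, 0 and 0 counts in the H/R group against 0, 0 and 0 in the control group. Ifne had 1, 0 and 0 against 0, 5 and 0. Ifnb1, Ifna1, Ifna2, Ifnk, Ifng, Ifnl2 and Ifnl3 were not analysed here, so nothing is said of their levels. The receptor of interferon gamma rose in both chains, Ifngr1 with 162 ± 11.6 CPM in the H/R group and 93.2 ± 3.44 CPM in the control group (SD, n = 3 each; log2 fold change 0.80, adjusted p = 3.22e-05 by edgeR) and Ifngr2 with 139 ± 5.93 CPM and 72.2 ± 3.45 CPM (0.95, adjusted p = 8.03e-06 by edgeR). Ptpn2, a phosphatase of the JAK and STAT proteins, fell (-0.52, adjusted p = 0.0114 by edgeR), a call lost without H/R replicate 1 (-0.46) or control replicate 2 (-0.43). Irf3, a factor that the sensors activate through kinases, had 2.36, 2.14 and 5.94 CPM against 1.68, 1.30 and 0.898 CPM and did not pass (1.41, adjusted p = 0.0644 by edgeR). It passed without scaling factors (1.62), without the filter (1.43) and in the exact test (1.42), and its value was 0.79 without H/R replicate 3, the highest library.

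Of 16 tested genes of nucleic acid sensing, a list of sensors, adaptors, kinases and nucleases, 4 rose and 1 fell, beside the same 18.8% and 19% of all genes. Mavs, the mitochondrial adaptor of RIG-I and MDA5, had 48.3 ± 4.71 CPM in the H/R group and 28.4 ± 4.00 CPM in the control group (SD, n = 3 each) and rose (log2 fold change 0.76, adjusted p = 0.00106 by edgeR). Tmem173, which encodes STING, had 41.8 ± 2.76 CPM and 18.1 ± 2.47 CPM (1.20, adjusted p = 4.64e-05 by edgeR). Traf3, a ligase between the adaptors and the kinases that activate IRF3, rose by 0.82 and Rnaseh2c, a subunit of the enzyme that clears RNA from DNA, by 1.04 on the log2 scale (adjusted p = 3.87e-05 and 0.013 by edgeR), and the call of Rnaseh2c was lost without H/R replicate 1 (0.99) or H/R replicate 2 (0.96). Ticam1, the adaptor of the Toll-like receptor of double-stranded RNA, had 20.9 ± 1.91 CPM in the H/R group and 72.7 ± 15.8 CPM in the control group and fell (-1.80, adjusted p = 3.31e-06 by edgeR).

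Of 47 further induced genes tested, 15 fell and 8 rose, beside 19% and 18.8% of all genes. Those that fell included Irgm2, an immunity-related GTPase, with 8.36 ± 0.367 CPM in the H/R group and 36.8 ± 13.6 CPM in the control group (SD, n = 3 each; log2 fold change -2.14, adjusted p = 2.48e-05 by edgeR), Slfn8 (-1.94, adjusted p = 1.03e-06), Ifi202b (-1.67, adjusted p = 3.68e-06) and Lgals3bp (-1.0, adjusted p = 2.01e-05). Those that rose in the same edgeR test included Slfn9 (1.29, adjusted p = 7.19e-06), Mlkl (0.49, adjusted p = 0.0089) and Trim56 (0.39, adjusted p = 0.00444). Slfn8 and Slfn9, members of 1 gene family near each other on chromosome 11, thus had changes in opposite directions. Stretches that recur between their transcripts were not searched for, so the split of reads between them is uncertain.

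The lncRNA table, counted per transcript from the same libraries, held 46 transcripts tied to 21 of the genes, of which 36 share exons with the coding gene on the same strand and are therefore no separate evidence. The 14 tested were all among these 36. Of them 3 fell and 0 rose (edgeR), where 4.93% of the 6779 transcripts tested were called in either direction. The transcript of Ifi44 (ENSMUST00000133888) had 0.833, 4.50 and 0 CPM in the H/R group against 46.2, 71.4 and 15.9 CPM in the control group. Among the transcripts of Ddx58, ENSMUST00000137903 had 43.3, 37.8 and 16.4 CPM against 82.8, 110 and 126 CPM. That of Xaf1 (ENSMUST00000142921) had 31.7, 24.3 and 14.7 CPM against 84.4, 101 and 47.8 CPM. In each the groups did not overlap, with log2 fold changes of -4.57, -1.70 and -1.72. However, without H/R replicate 3 or control replicate 2 only 1 transcript was called. The other tested transcripts of Ddx58, ENSMUST00000139583 and ENSMUST00000149539, did not pass (log2 fold changes -0.05 and -0.18).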

How the data were processed

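Per the labels and the processing notes, the authors depleted ribosomal RNA and used cutadapt 1.9.3 for trimming, HISAT2 2.0.4 with mm10 for alignment, HTSeq 0.9.1 for gene counts and edgeR 3.16.5 for their own comparison. The deposited tables hold raw counts per gene, per lncRNA transcript and, after STAR 2.5.1b, per circRNA junction, beside 18 columns of other values per sample and the columns of the authors' comparison, none of which were used. The strand setting and the tool of the lncRNA counting are not given in the sources used here.

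Each table was fitted with R 4.3.3 and edgeR 4.0.16 (filterByExpr, TMM, two-sided quasi-likelihood test of the H/R coefficient, Benjamini-Hochberg adjustment over the whole table, threshold 0.05, coefficient of variation between replicates 0.144 in the gene table). Each SE was not estimated separately. It is the absolute log2 fold change divided by the square root of the F statistic of this test, and so restates the same test. The fit was tested on simulated data. Alternatives were DESeq2 1.42.0, RLE factors, no scaling, other filters, the exact test, thinned H/R libraries, replicate block, each library left out and the study's own thresholds.

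The genes and lists were chosen with earlier results of these data known. All 42 genes were named, and of the further genes Irf3 and in each list the 4 or fewer passing genes of either direction that ranked first by adjusted p, apart from some that are not reported here. Of the lncRNAs, those that passed were named, beside the other tested transcripts of Ddx58. Gene coordinates are from GENCODE vM21, promoters from RefSeq (GRCm38.p6). Depth per library and its limits stand with the results, and tests were limited to features that passed the filter.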

Additional observations from a re-analysis of the deposited data

Results flagged for a closer look

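Reads over circRNA junctions of the genes described here, from a table that entered none of the comparisons, were few and came from single libraries. A circRNA within Ifit2 (chr19:34575013-34575233, plus strand) had 0, 5 and 0 reads over its back-splice junction in the H/R group against 0, 0 and 0 in the control group, and another junction of Ifit2 (chr19:34575074-34575294) had 0, 3 and 0 against 0, 0 and 0. Counts of the same size stood on the other side, where a circRNA of Adar had 0, 0 and 0 reads in the H/R group against 0, 0 and 5 in the control group, and one of Parp9 had 0, 0 and 0 against 0, 3 and 0. The 5 reads of Ifit2, like the 5 of Adar, exceed the 3 reads that a count of 0 allows, a limit that covers counting error only and neither the spread between libraries nor the greater depth of the H/R libraries, and no difference between the groups is read from them.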

How the results depend on the processing

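Each of the 24 calls kept its direction under every alternative fit, and 24 kept their call with DESeq2, RLE factors, no filter, a minimum of 1 CPM or the exact test, 23 with thinned H/R libraries and 20 without scaling. Without scaling the higher calls numbered 5 of these genes (2 of receptors and signalling, 3 effectors) and 25 further genes. Among all genes 3704 were then higher and 1272 lower, in place of 2087 and 2109. At the thresholds of the study the higher calls were 1 (0 of receptors and signalling) and the higher and lower further genes 6 and 9. With each library left out, the calls ran from 2 to 3 higher and 19 to 22 lower, with effectors 1 to 2 higher and 16 to 19 lower, receptors and signalling 1 higher and 3 to 4 lower, further genes 10 to 16 higher and 13 to 20 lower, and lncRNAs 1 to 4 lower. The longer ISRE, the core followed by CT, was found in 7 promoters in place of 13, because it is stricter, and in 0.303% of all genes. The replicate numbers showed no sign of pairing the samples (correlations of deviations 0.0406, -0.0113 and 0.0122), though so few libraries cannot exclude it. With the replicate block 21 genes were lower and 2 higher. Over 57 named genes, 762 values stayed on their side of the threshold, 22 lost it and 12 gained it, with 0 reversals. The cause of the other shifts was not tested. Control libraries held fewer counts, but values under 1 CPM rest on few reads in either group. In the H/R group Oasl2 had 11, 6 and 2 counts, Usp18 21, 2 and 12, and Irf7 16, 6 and 24, so the sizes of these decreases are uncertain.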
